A study of Mus musculus with 9 samples.

Results

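The interleukin 1 (IL-1) family and its receptors were followed through 10 genes in the submandibular salivary gland of Smgb-Tag transgenic mice: Il1rn, Il1a, Il1b, Il1r1, Il1r2, Il1rap, Il1rl1, Il18, Il33 and Casp1. A gene was measured through the array probes that the platform annotation pairs with its symbol. Of the 10 genes, 9 had a probe and the same 9 exceeded background on at least 3 of 9 arrays, out of 12995 genes that did so among 19057 named genes with a probe. Il1rl1, the IL-33 receptor, was not analysed here. The set was chosen by a measured value: it was put together because Il1rn lay among the largest increases in dysplastic against normal gland, so the values of that comparison are given as a description of the members, with no test.

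Total RNA of whole submandibular gland was hybridised to Illumina arrays in 3 groups of 3: glands labelled normal, glands labelled dysplastic and glands labelled adenocarcinomatous. All 9 arrays, the normal ones included, carry the Smgb-Tag genotype, in which regulatory sequence of the salivary gene Smgb drives the SV40 large T antigen. The study therefore compared stages within 1 transgenic line, and glands of mice without the transgene were not analysed here. The labels state no strain background, age, sex or number of animals behind an array. Nothing says that the 3 arrays of a group are separate animals, and a p-value then covers only the spread among these arrays, which may be technical. Levels are log2 of the deposited intensity. The background level was 6.31 on that scale, and a group at or below it has only a bound. A level is a property of its probe, and no level is set against that of another gene.

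IL-1 alpha (Il1a) and IL-1 beta (Il1b) are inflammatory cytokines that bind the receptor Il1r1, which then pairs with the accessory chain Il1rap and signals through Myd88 and IRAK kinases to NF-kB and AP-1. The antagonist encoded by Il1rn occupies Il1r1 without recruiting the accessory chain, and Il1r2 is a decoy receptor that binds ligand without signalling. Caspase 1 (Casp1) cleaves the precursors of IL-1 beta and of IL-18 (Il18) in inflammasomes. IL-33 (Il33) is stored in the nucleus of endothelial, epithelial and stromal cells and acts on Il1rl1 when released.

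Il1rn, Il1a and Il1b lie on mouse chromosome 2 in the RefSeq annotation of GRCm38.p6, Il1rn at chr2:24336860-24351491, Il1a at chr2:129299609-129310186 and Il1b at chr2:129364569-129371164. Their promoter windows are shown because these 3 genes encode the antagonist and the agonists of 1 receptor and all read highest on dysplasia 3. Il1r1 and Il1r2 also read highest there, and their windows hold no AP-1 or TATA match. Each window runs from 250 bases before to 50 after an annotated start, is printed 5′ to 3′ on the gene's strand and is credited to RefSeq, build GRCm38.p6. Capitals mark matches, on either strand, to the AP-1 motif TGANTCA or to the TATA motif TATAAA.
Il1rn, chr2:24336610-24336909, plus strand: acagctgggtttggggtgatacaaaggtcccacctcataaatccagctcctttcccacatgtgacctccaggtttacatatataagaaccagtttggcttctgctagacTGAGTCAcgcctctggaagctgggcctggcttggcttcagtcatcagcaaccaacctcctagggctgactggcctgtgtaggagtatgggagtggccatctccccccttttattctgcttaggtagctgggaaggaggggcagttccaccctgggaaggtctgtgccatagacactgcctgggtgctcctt
Il1a, chr2:129309923-129310222, minus strand: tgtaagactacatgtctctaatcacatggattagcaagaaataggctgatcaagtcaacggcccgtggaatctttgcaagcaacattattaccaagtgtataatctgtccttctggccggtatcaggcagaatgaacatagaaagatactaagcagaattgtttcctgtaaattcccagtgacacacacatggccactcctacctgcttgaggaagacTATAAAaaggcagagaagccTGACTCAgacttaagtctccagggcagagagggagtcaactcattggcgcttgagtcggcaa
Il1b, chr2:129371090-129371389, minus strand: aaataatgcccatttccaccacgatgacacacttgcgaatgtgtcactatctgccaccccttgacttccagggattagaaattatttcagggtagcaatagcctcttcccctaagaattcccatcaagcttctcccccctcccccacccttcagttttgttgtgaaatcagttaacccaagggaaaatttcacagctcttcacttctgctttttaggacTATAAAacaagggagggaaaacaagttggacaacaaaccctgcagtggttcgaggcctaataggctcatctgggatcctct
The Il1rn window printed here holds 1 AP-1 match, 141 bases before the start, and no TATA match. Windows of other Il1rn starts, at chr2:24345041-24345340 and chr2:24345121-24345420, are not printed and hold no AP-1 match. The latter holds a TATA match 14 bases after its start. The Il1a window holds an AP-1 match 12 bases and a TATA match 32 bases before the start, and the Il1b window holds a TATA match 31 bases before it. Matches to the different motifs do not overlap in these windows. Over all 15 windows of the 10 genes, the AP-1 motif was found in 2, the TATA motif in 6 and the NF-kB motif in 1, which belongs to a second start of Il1r1. The same letters occur in 7.81%, 13.6% and 4.51% of 32851 RefSeq promoter windows of this length. A match describes the letters of a window and is not a measured site.

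The arrays of a group were unequal, and this touches every result below. Normal 1 and normal 2 correlated at 0.992 across the genes tested, while the array labelled normal 3 correlated with them at 0.872 and 0.880 and with the 6 dysplastic and adenocarcinoma arrays at 0.897 to 0.973. Cdkn2a, a cell cycle inhibitor singled out after its values were seen, was at background on normal 1 (6.06) and normal 2 (6.04), and lay at 10.56 on normal 3 and between 10.08 and 11.25 on the dysplastic and adenocarcinoma arrays. Results that use the normal group are therefore given with and without normal 3. Leaving it out was decided after these values were seen, and it removes the normal array most like the other groups. The p-values and calls without normal 3 can therefore be too favourable, and they are given as a description. Of the 14 measured genes of salivary ducts and acini, some were bright on all 9 arrays: Krt8 lay between 12.37 and 14.19, the adherens junction gene Cdh1 between 10.84 and 12.58, and the water channel Aqp5 between 11.09 and 14.63. Amy1, salivary amylase, lay between 6.74 and 9.06 on the dysplastic arrays and between 11.24 and 15.38 on the others. Others varied more: Elf5, an epithelial transcription factor, read 12.42 and 12.62 on normal 1 and normal 2 and 5.89 to 8.78 elsewhere, Egf ranged from 8.12 to 15.31, Ascl3 from 6.04 to 10.62 and Krt19 from 6.10 to 9.74, and Epcam was below background on normal 1 and adenocarcinoma 3. These are bulk samples, so fewer cells of a type and less RNA per cell cannot be told apart.

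Il1rn, the receptor antagonist, was at background on 2 normal arrays and bright on the other 7 arrays. Its log2 intensity was 6.30, 6.28 and 11.30 on normal 1, 2 and 3, 10.43, 9.79 and 14.41 on dysplasia 1, 2 and 3, and 11.61, 11.73 and 8.88 on adenocarcinoma 1, 2 and 3. Normal 1 and normal 2 were at background, every other array was well above it, and normal 3 lay inside the range of both other groups. Group means were 7.96 ± 2.89 in normal, 11.54 ± 2.50 in dysplastic and 10.74 ± 1.61 in adenocarcinoma glands (log2, SD, n = 3 each), and neighbours in the order dysplastic, adenocarcinoma, normal differed by less than the larger of their SDs.

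**Figure D1:**
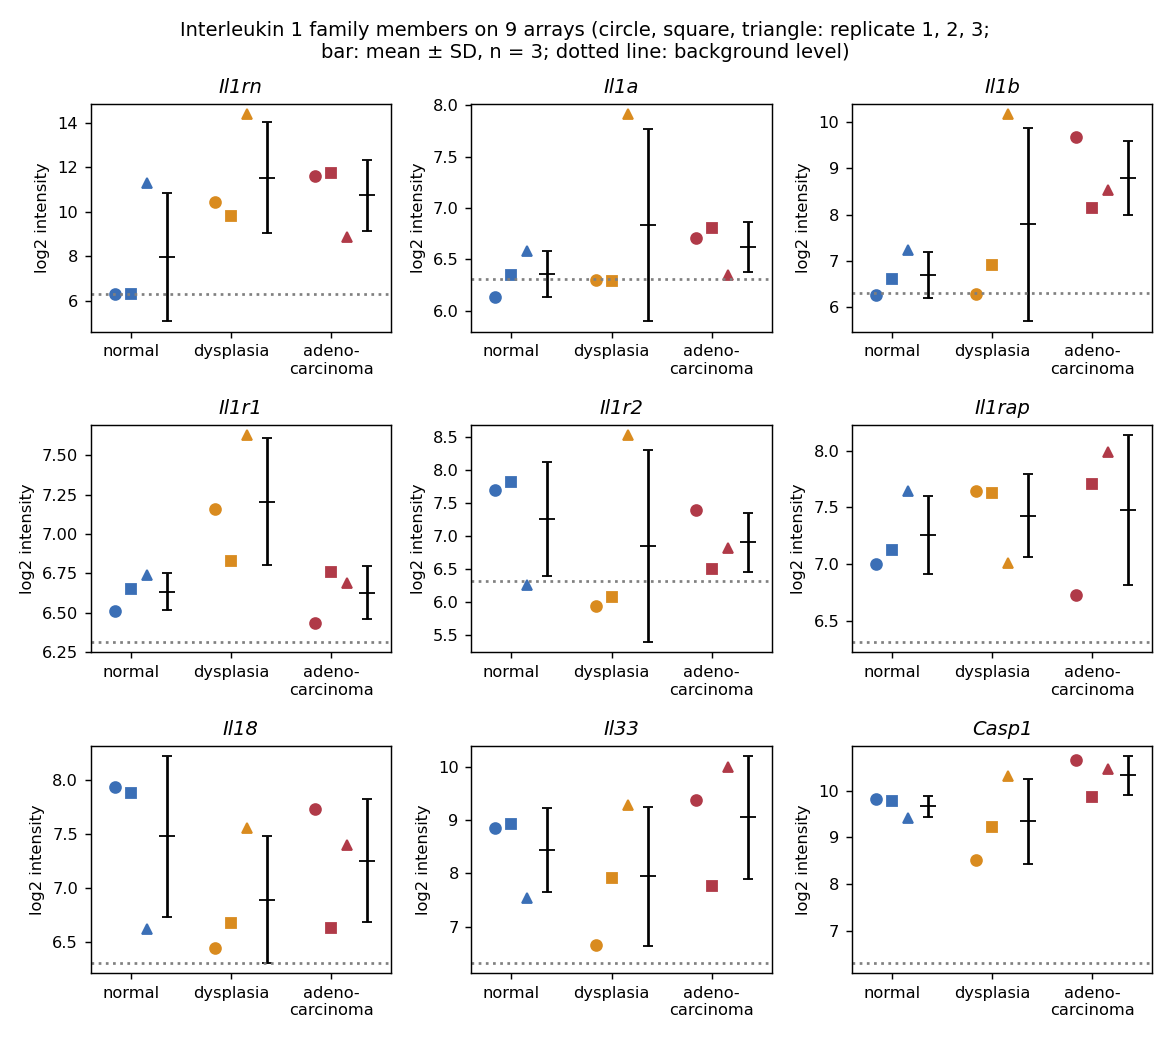
Log2 intensity (vertical axis, a scale of its own in each panel) of the 9 measured genes by group; each symbol is 1 array, black bars give mean ± SD over 3 arrays, and the dotted line is the background level of 6.31. Il1rn is at background on normal 1 and normal 2 and at 11.30 on normal 3, and dysplasia 3 is the highest array for 5 of the 9 genes.

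In dysplastic against normal glands the Il1rn mean differed by 3.58 on the log2 scale, an 11.97-fold difference, with no test because this contrast chose the gene. Without normal 3 it was at least 37.6-fold higher on this brightest Il1rn probe, with the 2 remaining normal arrays set at the background level. The smaller differences on the other probes are given below. Without dysplasia 3, with all normal arrays kept, the difference was 2.15. In adenocarcinoma against normal glands the difference was 2.78 ± 1.70 (SE) on the log2 scale and did not pass the test (limma, adjusted p = 0.432). This comparison shares its normal arrays with the one that chose Il1rn, so its p-values for Il1rn, here and below, are affected by that choice. The comparison of adenocarcinoma with dysplasia shares its dysplastic arrays in the same way. Without normal 3 all 3 adenocarcinoma arrays lay above both normal ones, and the level was at least 21.5-fold higher on this probe. The fitted log2 difference, which is no bound, was 4.45 ± 1.44, with an adjusted p of 0.0821 in limma. Adenocarcinoma and dysplastic glands overlapped, with a log2 difference of -0.80 ± 1.70 (limma, adjusted p = 0.947), and the sign turned to 0.63 ± 1.63 without dysplasia 3.

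Il1rn had 4 probes, and the 3 above background gave the same picture on smaller scales. The second probe read 6.12, 6.35 and 7.83 on the normal arrays, 7.59, 7.23 and 9.66 on the dysplastic ones and 7.92, 8.28 and 7.28 on the adenocarcinoma ones. The third probe read 6.11, 6.01 and 7.31, then 7.12, 6.74 and 10.18, then 7.58, 7.75 and 6.37 in the same order. On all 3 probes dysplasia 3 was highest and normal 1 and normal 2 were lowest. The differences of adenocarcinoma from normal were 1.06 and 0.76 on the second and the third probe, against 2.78 on the brightest one. Without normal 3 they were 1.60 and 1.18, against 4.45. The dysplastic mean then exceeded the normal one by 1.93 and 1.95, against 5.25. The fold bounds given above thus hold for the brightest probe only. The fourth probe did not exceed background on any array, with values between 5.73 and 6.14. Il1rn is transcribed from several annotated starts, which give secreted and intracellular forms of the antagonist, and the probes were not assigned to a start here.

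**Figure D2:**
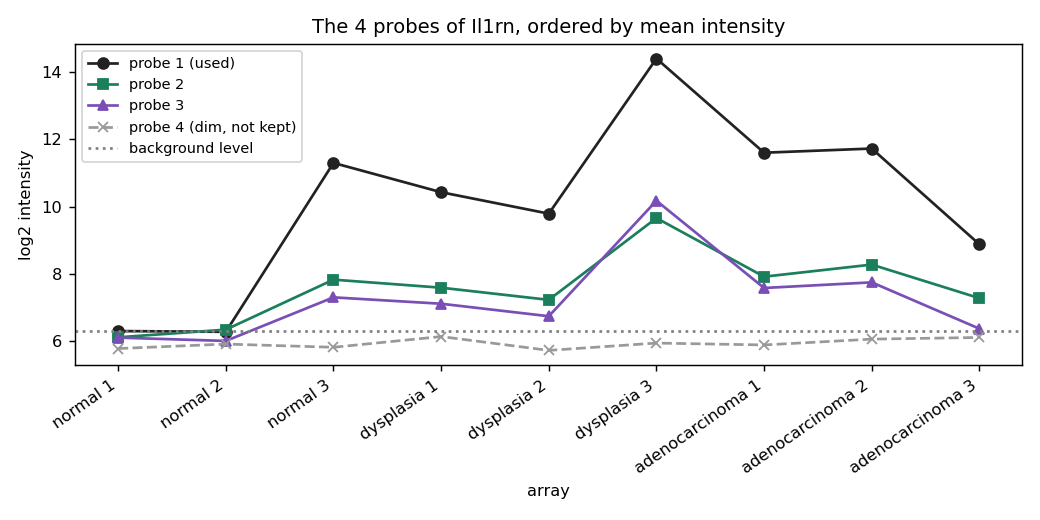
Log2 intensity (vertical axis) of the 4 Il1rn probes on each array (horizontal axis), with the background level of 6.31 dotted. The first 3 probes peak on dysplasia 3 and are lowest on normal 1 and normal 2, and the fourth stays between 5.73 and 6.14.

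Il1b, the inducible agonist, was low in the normal glands and in 2 of the 3 dysplastic ones and well above it in all 3 adenocarcinomas. Its log2 intensity was 6.25, 6.61 and 7.24 on the normal arrays, 6.29, 6.90 and 10.17 on the dysplastic ones, and 9.68, 8.15 and 8.54 on the adenocarcinoma ones. Every adenocarcinoma array lay above every normal array, while the dysplastic group spanned from background to the highest value of all 9. The adenocarcinoma mean was 4.26-fold above the normal mean, a log2 difference of 2.09 ± 0.94 (SE, n = 3 and 3), which did not pass the test (limma, adjusted p = 0.328). Without normal 3 the log2 difference was 2.36 ± 1.09 with an adjusted p of 0.193 in limma. Against dysplastic glands the log2 difference was 1.00 ± 0.94 with all arrays and 2.20 ± 0.50 without dysplasia 3, with adjusted p-values in limma of 0.889 and 0.569. It was 0.25 without dysplasia 1, 0.56 without dysplasia 2 and 0.56 without adenocarcinoma 1.

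Il1a, the agonist that is active without cleavage, stayed close to background. It read 6.13, 6.35 and 6.58 on the normal arrays, 6.30, 6.29 and 7.91 on the dysplastic ones and 6.71, 6.81 and 6.34 on the adenocarcinoma ones. Only dysplasia 3 was more than 1 log2 unit above normal 1 and normal 2, and a second Il1a probe read 7.32 there against 6.05 to 6.81 elsewhere. The adenocarcinoma mean differed from normal by 0.26 ± 0.42 (limma, adjusted p = 0.784) and from dysplasia by -0.21 ± 0.42 (limma, adjusted p = 0.942). Without dysplasia 3 the dysplastic group was below background and adenocarcinoma was at least 1.24-fold higher (limma, adjusted p = 0.649). On the second probe these groups overlapped: adenocarcinoma 3 read 6.05, dysplasia 1 read 6.24 and dysplasia 2 read 6.16, all below background.

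On normal 3, dysplasia 1 and dysplasia 2, Il1rn lay between 9.79 and 11.30, Il1b between 6.29 and 7.24 and Il1a between 6.29 and 6.58. On dysplasia 3 all of these genes had their highest value. The dysplastic values of Il1rn are those for which the set was chosen, so this is a description, and probes can differ in how strongly they respond.

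**Figure D3:**
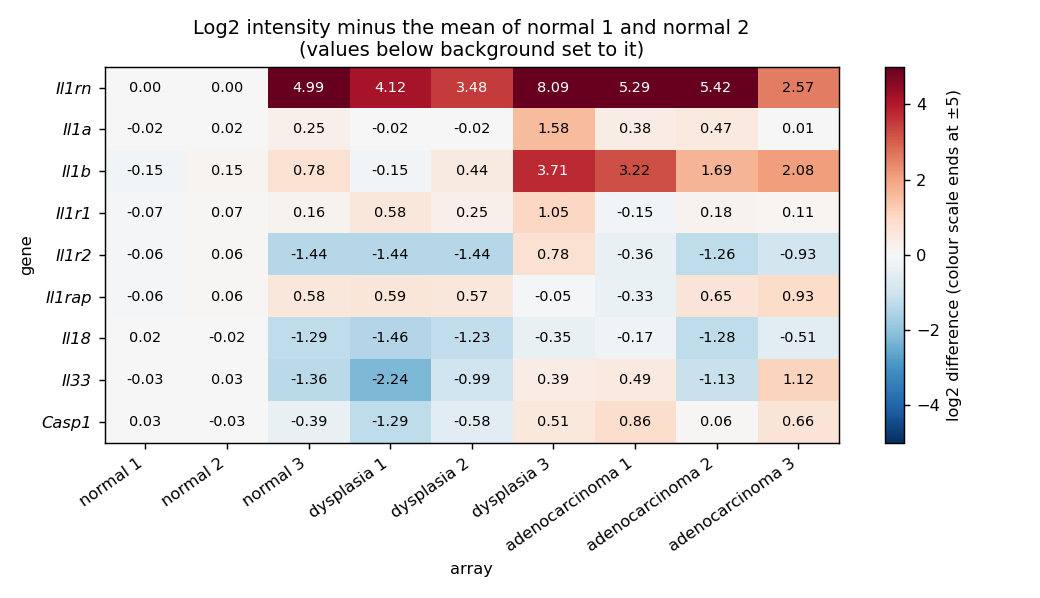
Log2 intensity of each gene (rows) on each array (columns) minus the mean of normal 1 and normal 2, with values below background set to it, so that differences from such values are bounds; red is higher, blue lower, and the numbers give the differences. Il1b is higher by more than 1 log2 unit on dysplasia 3 and the adenocarcinoma arrays, and Il1r2, Il18 and Il33 are lower on normal 3, dysplasia 1, dysplasia 2 and adenocarcinoma 2.

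Casp1, the protease that matures IL-1 beta and IL-18, was bright on every array and highest in adenocarcinoma. It read 9.82, 9.77 and 9.41 on the normal arrays, 8.51, 9.21 and 10.31 on the dysplastic ones and 10.66, 9.86 and 10.46 on the adenocarcinoma ones. The 3 adenocarcinoma arrays lay above the 3 normal ones, by 0.66 ± 0.43 in the mean, or 1.58-fold (limma, adjusted p = 0.464). Against dysplastic glands the difference was 0.98 ± 0.43, and without dysplasia 3 it was 1.46 ± 0.32 (limma, adjusted p = 0.889 and 0.569). Without dysplasia 1 it was 0.56.

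Il18 and Il33, the members best known from epithelium and stroma, were high on normal 1 and normal 2 and low on normal 3. Il18 read 7.93, 7.89 and 6.62 on the normal arrays, 6.45, 6.68 and 7.56 on the dysplastic ones and 7.74, 6.63 and 7.40 on the adenocarcinoma ones. Its groups overlapped, and adenocarcinoma differed from normal by -0.23 ± 0.47 and from dysplasia by 0.36 ± 0.47 (limma, adjusted p = 0.840 and 0.909). A dimmer second Il18 probe stayed between 6.11 and 6.46 and did not show this pattern.

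Il33 read 8.86, 8.93 and 7.54 on the normal arrays, 6.66, 7.91 and 9.28 on the dysplastic ones and 9.39, 7.77 and 10.01 on the adenocarcinoma ones. Each group spanned more than 1 log2 unit, and adenocarcinoma differed from normal by 0.61 ± 0.79 and from dysplasia by 1.11 ± 0.79 (limma, adjusted p = 0.724 and 0.889). The difference from dysplasia was 1.78 ± 0.76 without dysplasia 3 (limma, adjusted p = 0.574), 1.75 without adenocarcinoma 2, 0.46 without dysplasia 1 and 0.63 without adenocarcinoma 3. The difference from normal was 0.16 without normal 3, 0.14 without adenocarcinoma 3 and 1.26 without adenocarcinoma 2.

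Il1r1, the signalling receptor, lay just above background on all 9 arrays and was higher in dysplastic glands. It read 6.51, 6.65 and 6.74 on the normal arrays, 7.16, 6.83 and 7.63 on the dysplastic ones and 6.43, 6.76 and 6.69 on the adenocarcinoma ones. All dysplastic arrays lay above all others, by 0.57 over normal, which is a description. Adenocarcinoma lay below dysplasia by a log2 difference of -0.58 ± 0.22 (limma, adjusted p = 0.889, unadjusted p = 0.0288) and differed from normal by -0.01 ± 0.22 (limma, adjusted p = 0.990). A second Il1r1 probe did not exceed background on any array.

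Il1r2, the decoy receptor, was below background on normal 3, dysplasia 1 and dysplasia 2. It read 7.69, 7.81 and 6.26 on the normal arrays, 5.93, 6.07 and 8.53 on the dysplastic ones and 7.39, 6.49 and 6.82 on the adenocarcinoma ones. The groups overlapped, and adenocarcinoma differed from normal by -0.35 ± 0.73 and from dysplasia by 0.05 ± 0.73 (limma, adjusted p = 0.840 and 0.990). Without normal 3 the 3 adenocarcinoma arrays lay below both normal ones, by -0.85 ± 0.75, which did not pass the test (limma, adjusted p = 0.485).

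Il1rap, the shared accessory chain, had the most probes, 6, all above background on at least 3 arrays. The brightest read 6.996, 7.12 and 7.64 on the normal arrays, 7.65, 7.63 and 7.01 on the dysplastic ones and 6.73, 7.71 and 7.99 on the adenocarcinoma ones. Its 4 lowest arrays were adenocarcinoma 1, normal 1, dysplasia 3 and normal 2. Adenocarcinoma differed from normal by 0.22 ± 0.36 and from dysplasia by 0.05 ± 0.36 (limma, adjusted p = 0.785 and 0.981).

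In the main fit with all 9 arrays no member passed in either tested comparison. The members were not tested as a group. Array weights, which also use all 9 arrays, let Il1rn and Il1b pass, as given below. In adenocarcinoma against normal glands limma called 0 of 9 members, where it called 0% of the 12995 genes tested (0 genes, with 2049 or 15.8% at an unadjusted p under 0.05). The groups did not overlap for 2 of 9 members, Il1b and Casp1, both higher, against 10.3% of all genes higher and 9.66% lower. The median log2 difference of the members was 0.26, against 0.01 over all genes, and 6 of 9 lay above 0, as did 50.8% of all genes. Without normal 3, 0 of 9 members and 15.3% of all genes were called. In that comparison Il1rn, Il1b and Casp1 were higher and Il1r2 and Il18 lower without overlap, against 28.5% of all genes higher and 27% lower.

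In adenocarcinoma against dysplastic glands limma called 0 of 9 members and 0% of all genes (554 genes, 4.26%, had an unadjusted p under 0.05, Il1r1 among them). With all arrays, groups did not overlap for Il1r1, lower in adenocarcinoma, where 6.63% of all genes were lower without overlap. Without dysplasia 3 limma also called 0 of 9 members and 0% of all genes, and 5 of 9 members did not overlap: Il1a, Il1b, Il1r2 and Casp1 higher and Il1r1 lower, against 13.3% of all genes higher and 18.9% lower. For Il1a this holds on its brightest probe only, since the groups overlapped on the second. In dysplastic against normal glands, given as a description, the groups did not overlap for 1 of 9 members, Il1r1, against 12.3% of all genes higher and 10.4% lower, and Il1rn is not among them because of normal 3. The comparisons share arrays, so their values are not independent of each other.

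**Figure D4:**
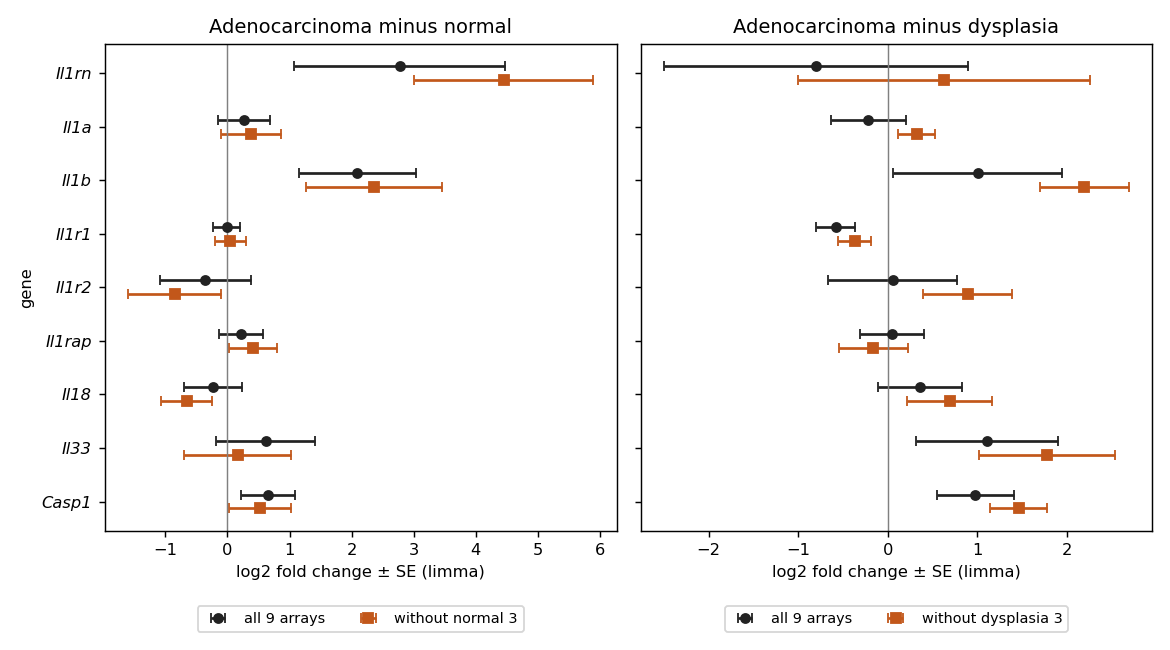
Log2 fold changes ± SE (limma, horizontal axis) of the 9 genes (vertical axis) for adenocarcinoma minus normal, with all arrays and without normal 3, and for adenocarcinoma minus dysplasia, with all arrays and without dysplasia 3. None passed an adjusted p of 0.05, the Il1rn difference from normal grows from 2.78 to 4.45 without normal 3, and its difference from dysplasia changes sign without dysplasia 3.

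Across single arrays, 5 of the 9 members (Il1rn, Il1a, Il1b, Il1r1 and Il1r2) had their highest value on dysplasia 3, which is the highest array for 11.9% of all genes tested. Within the dysplastic group, dysplasia 3 exceeded the mean of the other 2 arrays by 4.29 for Il1rn, 2.00 for Il33, 1.45 for Casp1, 1.00 for Il18 and 0.64 for Il1r1, and by at least 3.57 for Il1b, 2.22 for Il1r2 and 1.60 for Il1a, which were below background on dysplasia 1 or on both other arrays. For Il1rap the difference was -0.63. Dysplasia 1 was the lowest array for Il18, Il33 and Casp1. These values describe single arrays and carry no test.

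Cell type markers were read on the same arrays, and their part in the results was not tested. Of 13 neutrophil markers 8 were above background on at least 3 arrays, and in adenocarcinoma against normal glands 3 were higher (S100a8, S100a9 and Csf3r) and 1 lower (Retnlg) without overlap, against 10.3% and 9.66% of all genes. S100a8 read 8.36, 8.36 and 8.77 on the normal arrays, 6.90, 8.19 and 12.58 on the dysplastic ones and 10.77, 10.65 and 9.87 on the adenocarcinoma ones. S100a9 read 7.08, 7.03 and 7.50, then 6.62, 7.54 and 11.81, then 9.75, 9.61 and 8.81. Ltf was highest on adenocarcinoma 1 at 11.78, Retnlg read 6.21 to 6.25 on the adenocarcinoma arrays and 8.23 on dysplasia 3, and Elane and Camp lay between 6.09 and 6.79 on all 9 arrays. The summed intensity of the 8 genes, carried mostly by S100a8, S100a9 and Ltf, was 1146 to 1836 in normal, 689 to 11477 in dysplastic and 2146 to 6635 in adenocarcinoma glands. The granule genes Mpo, Ngp and Mmp8, with Stfa2, did not exceed background on 3 arrays.

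All 14 measured of 15 macrophage and monocyte markers had a higher mean in adenocarcinoma than in normal glands, 7 of them without overlap against 10.3% of all genes, and limma called none. Their summed intensity was 34190 to 41987 in normal, 22954 to 100130 in dysplastic and 67560 to 84476 in adenocarcinoma glands. A single gene, Lyz1, made up the largest part of that sum on every array. Lyz1 read 14.24 to 14.43 on the normal arrays, 14.005 to 15.57 on the dysplastic ones and 15.34 to 15.48 on the adenocarcinoma ones. Their median log2 intensity was 9.72, 9.79 and 9.12 on the normal arrays, 8.36, 9.14 and 9.86 on the dysplastic ones and 10.71, 9.65 and 10.31 on the adenocarcinoma ones. Casp1 shared with this median its 2 highest arrays, adenocarcinoma 1 and 3, and its lowest, dysplasia 1.

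Il33 was set beside the markers of fibroblasts and of endothelium, and no correlation with these lists was computed. Among the members Il33 was most like Casp1, with a Pearson correlation of 0.906 over the 9 arrays, which is a description. The median of the 8 measured of 9 fibroblast and matrix genes was 10.53, 10.47 and 9.13 on the normal arrays, 7.68, 8.99 and 10.61 on the dysplastic ones and 10.002, 9.16 and 11.86 on the adenocarcinoma ones. The median of the 10 endothelial genes, all measured, was 9.24, 8.98 and 8.39, then 7.62, 7.99 and 9.28, then 8.76, 7.99 and 9.45. Both medians and Il33 were lowest on dysplasia 1 and highest on adenocarcinoma 3. Summed intensity was 7545 to 33342 in normal, 1735 to 21709 in dysplastic and 5827 to 34088 in adenocarcinoma glands for the fibroblast list, and 4892 to 7709, 2646 to 7566 and 4116 to 10266 for the endothelial list.

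Adipocyte markers were highest on normal 1 or normal 2, the arrays on which Il18, Il1r2 and Il33 exceeded normal 3. Of these 3 members only Il18 was itself highest there. Il1r2 was highest on dysplasia 3 (8.53) and Il33 on adenocarcinoma 3 (10.01). All 8 measured of 10 adipocyte markers had their highest value on normal 1 or normal 2. Of all genes tested, 13.4% were highest on normal 1 and 13.6% on normal 2. The adipocyte median was 11.63, 10.72 and 7.51 on the normal arrays, 6.18, 6.88 and 6.80 on the dysplastic ones and 9.53, 6.13 and 7.57 on the adenocarcinoma ones. The summed intensity of these 8 markers was 2290 to 43905 in normal, 582 to 1561 in dysplastic and 637 to 9375 in adenocarcinoma glands. Without normal 3 limma called 5 of the 8 lower in adenocarcinoma than in normal glands, against 7.78% of all genes, and with all 9 arrays it called none. Of the 8 measured of 10 mast cell markers 5 were highest on normal 1 or normal 2, beside the same shares of all genes, 13.4% and 13.6%. Kit, which also stands on the duct and acinar list, was highest on dysplasia 1. The mast cell list had medians of 7.67, 7.36 and 7.39 on the normal arrays, 6.07, 6.86 and 6.44 on the dysplastic ones and 6.99, 6.26 and 7.12 on the adenocarcinoma ones. It summed to 2169 to 2589 in normal, 3931 to 4273 in dysplastic and 1533 to 3365 in adenocarcinoma glands. Kit made up most of the dysplastic sums, at 11.83, 11.6 and 11.48, against 9.87, 9.997 and 9.89 on the normal arrays. In dysplastic against normal glands 4 of the 8 were lower and 1, Kit, higher without overlap (10.4% and 12.3% of all genes). Of these 8, limma called 2 lower in adenocarcinoma without normal 3, Mcpt4 and Tpsb2, both mast cell proteases.

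**Figure D5:**
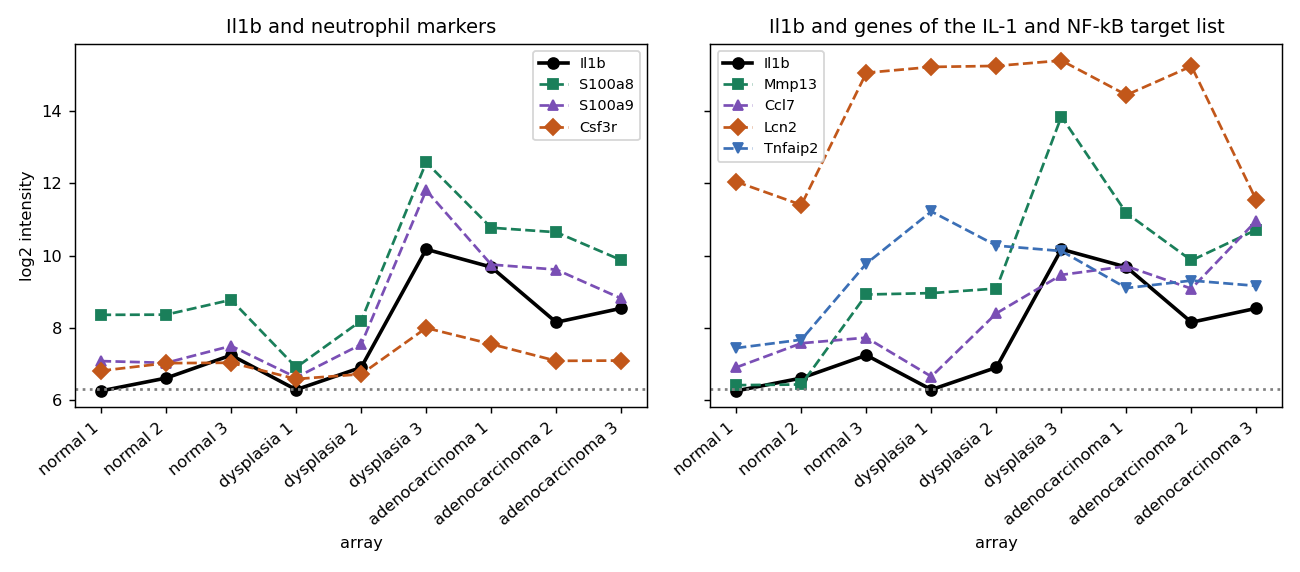
Log2 intensity (vertical axis) on each array (horizontal axis), with background dotted. Left, Il1b and 3 neutrophil markers, and right, Il1b and 4 genes of the IL-1 and NF-kB target list. The 3 markers are those of the 8 measured that were higher in adenocarcinoma than in normal glands without overlap. Retnlg, lower without overlap, and the remaining markers of the list are not shown. S100a8 and S100a9 are highest on dysplasia 3 and the adenocarcinoma arrays, as Il1b is, while Mmp13, Lcn2 and Tnfaip2 are already higher on normal 3, dysplasia 1 and dysplasia 2 than on normal 1 and normal 2.

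Of 29 genes known as targets of IL-1 or NF-kB signalling, 24 were measured, and many were high on dysplasia 3. In adenocarcinoma against normal glands 18 of 24 lay above 0, with a median log2 difference of 0.46 against 0.01 over all genes, 7 were higher and 1 lower without overlap (10.3% and 9.66% of all genes), and limma called none. Dysplasia 3 was the highest array for 13 of the 24, against 11.9% of all genes tested. Without normal 3 limma called 3 of the 24 in adenocarcinoma against normal, where 7.5% of all genes were called higher and 7.78% lower: Nfkbiz, a nuclear regulator of NF-kB targets, rose by 1.71 ± 0.36 (adjusted p = 0.0235), Tnfaip2 rose by 1.636 ± 0.32 (adjusted p = 0.0181), and Sod2, a mitochondrial superoxide dismutase, fell by 1.11 (SE 0.15, adjusted p = 0.00635). With all 9 arrays the 3 adjusted p-values in limma were 0.224, 0.468 and 0.274, and Nfkbiz and Sod2 were named because the count was small, after their values were seen. Il6, Ptgs2 and Csf2 did not exceed background on 3 arrays.

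The 4 targets with the largest differences are given by array. Mmp13, a collagenase, read 6.41, 6.43 and 8.92 on the normal arrays, 8.96, 9.09 and 13.85 on the dysplastic ones and 11.18, 9.86 and 10.72 on the adenocarcinoma ones. The 3 adenocarcinoma arrays lay above the 3 normal ones by 3.33 ± 1.32 (limma, adjusted p = 0.294). Ccl7, a monocyte chemokine, read 6.90, 7.57 and 7.73, then 6.65, 8.40 and 9.47, then 9.71, 9.08 and 10.97, and its adenocarcinoma arrays also lay above the normal ones, by 2.52 ± 0.73 (limma, adjusted p = 0.235). Lcn2, the iron-siderophore binder lipocalin 2, read 12.04, 11.40 and 15.06, then 15.22, 15.25 and 15.40, then 14.45, 15.24 and 11.53. Tnfaip2 read 7.44, 7.67 and 9.78, then 11.22, 10.28 and 10.13, then 9.10, 9.31 and 9.16. Mmp13, Lcn2 and Tnfaip2, like Il1rn, were lower on normal 1 and normal 2 than on normal 3.

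Of 19 inflammasome and processing genes 14 were measured; 3 were higher and 1 lower in adenocarcinoma than in normal glands without overlap, against 10.3% and 9.66% of all genes, and the median difference was 0.15. Gsdmd, whose cleaved product forms the pore that releases IL-1 beta, read 8.41, 8.50 and 9.89 on the normal arrays, 8.88, 10.39 and 10.18 on the dysplastic ones and 10.77, 10.28 and 10.89 on the adenocarcinoma ones. It differed from normal by 1.71 ± 0.51 in adenocarcinoma (limma, adjusted p = 0.239) and rose by 2.19 ± 0.45 without normal 3 (limma, adjusted p = 0.0200). Without normal 3 it was the only 1 of the 14 called, where 7.5% of all genes were called higher and 7.78% lower. Pycard, the adaptor that links sensors to caspase 1, was lower in adenocarcinoma without overlap, by a log2 difference of -1.11 ± 0.33 (limma, adjusted p = 0.241). Casp4, the mouse caspase 11 that senses lipopolysaccharide, was higher without overlap by 0.98 ± 0.44 (limma, adjusted p = 0.329). Txnip, a thioredoxin inhibitor, differed by -0.23 ± 0.48 (limma, adjusted p = 0.847). The sensor Nlrp3 did not exceed background on 3 arrays.

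All 20 signal transduction genes with a probe, of 23, were measured, with a median difference of -0.08 between adenocarcinoma and normal, and 2 higher and 2 lower without overlap, near the 10.3% and 9.66% of all genes. Rela, the NF-kB subunit p65, differed by 0.77 ± 0.21 (limma, adjusted p = 0.224) and rose by 0.91 ± 0.21 without normal 3 (limma, adjusted p = 0.0313). No other gene of the 20 was called without normal 3, where 7.5% of all genes were called higher and 7.78% lower. Irak1, a kinase recruited by Myd88, was lower in adenocarcinoma without overlap, by -0.83 ± 0.33 (limma, adjusted p = 0.296). Ecsit, an adaptor of Traf6, differed by -0.44 ± 0.31, and Peli2, an E3 ligase that acts on IRAK proteins, by 0.16 ± 0.56 (limma, adjusted p = 0.486 and 0.910).

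Of the 12 other ligands and receptors of the family 7 were measured, none higher and 2 lower in adenocarcinoma than in normal glands without overlap, against 10.3% and 9.66% of all genes. Il18bp, the soluble trap for IL-18, was lower by a log2 difference of -0.48 ± 0.15 (limma, adjusted p = 0.254). Sigirr, an inhibitory receptor of the family, differed by -0.51 ± 0.22 (limma, adjusted p = 0.315). Il18r1, the IL-18 receptor, read 7.52, 7.53 and 6.18 on the normal arrays, 5.97, 6.20 and 9.78 on the dysplastic ones and 8.68, 6.51 and 9.92 on the adenocarcinoma ones, a pattern near that of Il33. Il1rl2, the IL-36 receptor, was highest on dysplasia 3 at 7.79, with 6.60 to 7.16 elsewhere. The IL-36 genes listed as Il1f6, Il1f8 and Il1f9 did not exceed background on 3 arrays.

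The genes whose pattern over the 9 arrays was most like that of Il1rn were Ap3m2, Osbpl3, Thnsl1, Masp1 and Sdhaf1, with Pearson correlations of 0.986, 0.980, 0.980, 0.971 and 0.968. The correlation is a description over 9 arrays that share the low pair of normal 1 and normal 2 and the high value of dysplasia 3. Masp1, a protease of the lectin pathway of complement, had the nearest span, with 6.88, 6.83 and 10.60 on the normal arrays, 9.28, 8.42 and 13.19 on the dysplastic ones and 11.17, 10.22 and 8.03 on the adenocarcinoma ones. Osbpl3, an oxysterol-binding protein relative, read 7.47, 7.86 and 9.16, then 8.96, 9.11 and 10.41, then 9.48, 9.64 and 8.32. Ap3m2 ranged from 7.63 to 9.32, Thnsl1 from 7.47 to 8.96 and Sdhaf1 from 10.50 to 12.27.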

How the data were processed

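Per the labels, total RNA was labelled with biotin and measured on 9 Illumina arrays, 3 per group, and groups and replicate numbers come from the sample titles. The values used are the intensities that the authors deposited, quantile-normalized on a linear scale (sorted columns differed by at most 0.0992%); the submitters' processing notes name limma. Whether background was subtracted, and with which software, is not given in the sources used here. Another table of the series, with 18 columns named after none of the samples, was left out.

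Of 45281 probes, 34885 had 1 gene symbol, 18 had several and 10378 were unnamed here. The log2 of the deposited intensity was analysed. The background level, an intensity of 79.4, was set at the 95th percentile of the spread estimated from values below the mode, 65.8. Probes above it on at least 3 arrays were kept, and a gene took its kept probe with the highest mean. Groups were compared in limma 3.58.1 (R 4.3.3) over all 9 arrays with Benjamini-Hochberg adjustment over 12995 genes, at an adjusted p under 0.05; SE is moderated. The number of arrays limits the precision. No exact permutation test was run, since its smallest p with 3 arrays against 3 is 0.1. The fit was tested on simulated data.

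The members, gene lists and tests were chosen with earlier results of these data known. Named genes were all members, up to 4 measured genes of each pathway list with the largest difference in any comparison, and the 5 genes most correlated with Il1rn. Marker lists are given by counts, sums and medians. Alternatives changed the offset (16), the filter (none, or at least 6 arrays), the background correction, the normalization, the probe rule, the arrays fitted, the array weights and the replicate block, and left out each array.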

Additional observations from a re-analysis of the deposited data

How the results depend on the processing

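In the main fit with all 9 arrays 0 genes were called in each comparison. In adenocarcinoma against normal glands the count was 6 with no filter, 1 with cyclic loess, 4463 with array weights and 0 to 1986 when single arrays were left out (1986 without normal 3, 1 without adenocarcinoma 2). In adenocarcinoma against dysplasia it was 4 with array weights and 0 to 1 when single arrays were left out (1 without dysplasia 1 and 1 without adenocarcinoma 2). In dysplasia against normal it was 1 with no filter, 7798 with array weights and 0 to 3029 when single arrays were left out (3029 without normal 3, 2 without dysplasia 1, 5 without adenocarcinoma 2). With array weights, Il1rn (4.82, adjusted p = 0.00637) and Il1b (2.61, adjusted p = 0.0118) passed in limma in adenocarcinoma against normal. Over all alternatives their adjusted p ranged up to 0.809 and 0.721. Il1rn was chosen by its values on these normal arrays, so its adjusted p is affected by that choice. Of 324 member values under alternatives in the 2 tested comparisons, 304 kept direction and side of the threshold, 2 newly passed and 18 changed sign. In adenocarcinoma against normal, Il18 became 0.000238 without normal 1 and 0.0864 without adenocarcinoma 2, Il1r1 became 0.00186, 0.0459 and 0.0880 without normal 2, normal 3 and adenocarcinoma 1, and Il1rap became -0.0352 without adenocarcinoma 3. In adenocarcinoma against dysplasia, array weights gave 1.15 for Il1rn, 0.305 for Il1a and -0.438 for Il1rap. Without dysplasia 3 these were 0.626, 0.326 (dysplasia then below background) and -0.160, and without adenocarcinoma 3 Il1rn was 0.124 and Il1rap -0.208. Il1rap was -0.0659 without adenocarcinoma 2, and Il1r2 was -0.402, -0.332 and -0.190 without dysplasia 1, dysplasia 2 and adenocarcinoma 1. Leaving out single arrays, values ranged in adenocarcinoma against normal from 1.646 to 2.41 for Il1b, 0.492 to 0.893 for Casp1, 0.136 to 1.26 for Il33, -0.656 to 0.0864 for Il18, -0.0728 to 0.0880 for Il1r1 and -0.0352 to 0.596 for Il1rap, and in adenocarcinoma against dysplasia from 0.254 to 2.20 for Il1b, 0.564 to 1.46 for Casp1, 0.464 to 1.78 for Il33, -1.68 to 0.626 for Il1rn, -0.489 to 0.326 for Il1a, -0.402 to 0.895 for Il1r2 and -0.208 to 0.423 for Il1rap. The cause was not tested. Deviations of same-numbered arrays correlated at -0.462 to 0.238 and those of differently numbered arrays at -0.489 to 0.51. No pairing by number was evident, and deviations from means of 3 arrays cannot exclude one. With the replicate block 0 genes were called in each comparison. Signal near background limits Il1a, Il1r1 and Il1r2.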

Other observations

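Other targets on the IL-1 and NF-kB list, chosen after their values were seen, had their highest level on dysplasia 3. Cxcl1, a neutrophil-attracting chemokine, read 8.02, 7.40 and 7.72 on the normal arrays, 7.51, 9.78 and 12.47 on the dysplastic ones and 10.20, 10.57 and 8.18 on the adenocarcinoma ones. Ccl20, a chemokine for cells that carry Ccr6, read 9.68 on dysplasia 3 and 6.16 to 6.54 on the other arrays. Saa3, an acute phase serum amyloid, read 11.73 on dysplasia 3, 10.39 and 10.04 on adenocarcinoma 1 and 2, and 6.98 to 8.77 elsewhere. Icam1, a leukocyte adhesion receptor, read 8.85, 9.004 and 9.28 on the normal arrays, 7.40, 8.62 and 11.63 on the dysplastic ones and 10.93, 9.33 and 9.84 on the adenocarcinoma ones. Tnfaip3, a brake on NF-kB signalling, read 9.73 on dysplasia 3 and 7.48 to 8.63 elsewhere. These values describe 1 array and carry no test.

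Within the normal group most lymphocyte markers were lower on normal 3 than on normal 1 and normal 2. The median of the 7 measured of 11 T cell markers was 9.07 and 8.97 on normal 1 and normal 2, 7.07 on normal 3, 6.26 to 6.66 on the dysplastic arrays and 8.29, 6.61 and 7.03 on the adenocarcinoma ones. Foxp3, a marker of regulatory T cells on this list, was an exception, with 9.81 and 9.81 on normal 1 and normal 2 and 10.65 on normal 3. It read 10.57 to 10.77 on the dysplastic and adenocarcinoma arrays, where the median of the list was 6.26 to 8.29. Whether this probe reports regulatory T cells was not tested. The 4 measured of 8 B and plasma cell markers had medians of 10.06 and 10.56 on normal 1 and normal 2 and 6.998 on normal 3, where Il18 and Il1r2 were also low.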
